A study of Homo sapiens with 4 samples.

Results

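Replication origins that lie far from any site bound by RepID (also called PHIP) were taken from the nascent-strand map of HCT116 cells. RepID is a WD40-repeat and bromodomain protein that binds chromatin at a subset of origins. Nascent DNA strands, short RNA-primed strands that mark where replication begins, were sequenced (NS-Seq) from asynchronous HCT116 cells, a colorectal carcinoma line, with unaltered RepID (WT). They were also sequenced from HCT116 cells that carried a CRISPR-mediated RepID knockout (KO), made with a guide against an exon of the gene and isolated as a stable clone under puromycin. RepID binding was mapped by ChIP-Seq with an anti-Flag antibody in U2OS osteosarcoma cells that expressed Flag-tagged RepID. There was 1 library per condition, with no replicates, and the lists give no read totals, so depth is unknown. The distance from RepID therefore joins initiation in one cell line to binding of a tagged protein in another.

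Distant origins were chosen by their gap to RepID: a WT region on chromosomes 1 to 22, less than 20 kb wide, whose nearest RepID region lay over 300 kb away. Of 78859 WT regions, 77492 lay on these chromosomes and 76059 of those were under 20 kb. The rule left 4467 distant origins, 5.87% of the 76059 (exact binomial 95% confidence interval 5.71 to 6.04%). The other 71592 origins, at most 300 kb from RepID, served for comparison, and so did the 11969 origins 100 to 300 kb away, the most alike in distance. The gap, the chromosomes and the width limit made the choice and are no findings. Gaps of the distant origins had a median of 459 kb, quartiles of 363 and 646 kb and a maximum of 3986 kb. The 3 closest to the limit lay 300006, 300044 and 300083 bp from RepID, and the 3 origins just outside the rule lay 299922, 299853 and 299850 bp away. All confidence intervals below cover counting error only, and neighbouring regions are not independent, so these intervals are too narrow.

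In mammalian cells, origins are licensed at many more places than are used, and the sites that fire depend on chromatin. Origins are crowded in gene-dense, early-replicating chromatin and sparse in gene-poor chromatin that replicates late.

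Distant origins were thinly spread. Positions over 300 kb from RepID made up 741 Mb, 26.5% of the 2796 Mb between the first and the last listed region of each autosome, and held 6.03 origins per Mb (exact Poisson 95% interval 5.85 to 6.21). The rest of the autosomes held 34.8 per Mb (34.6 to 35.1). Stretches of over 500 kb with no region in any of the 3 lists, which centromeres and other unassembled sequence would give, took 93.3 Mb of the distant territory. Without them the density was 6.90 per Mb. Distant territory held fewer origins per Mb than the rest on all 22 autosomes, with or without the empty stretches. Without them the density of distant origins ran from 3.99 per Mb on chromosome 4, where the rest held 16.1, to 26.8 on chromosome 19, where the rest held 74.9. With them chromosome 19 had 16.7 per Mb and chromosome 22, with 12 distant origins, was highest at 20.99.

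The autosomes differed widely in the share of their origins that were distant. Chromosome 21 stood highest, with 209 of its 1001 origins (20.9%, exact binomial 95% interval 18.4 to 23.5%). Chromosome 4 followed with 294 of 2139 (13.7%, 12.3 to 15.3%), chromosome 18 with 215 of 1704 (12.6%, 11.1 to 14.3%) and chromosome 13 with 201 of 1598 (12.6%, 11.0 to 14.3%). The intervals of chromosomes 4, 13 and 18 overlap, and that of chromosome 21 lies above all of them. At the low end were chromosome 22 with 12 of 2309 (0.520%, 0.269 to 0.906%) and chromosome 17 with 81 of 4068 (1.99%, 1.58 to 2.47%). Chromosomes 4, 13 and 18 are known as gene-poor and chromosomes 17, 19 and 22 as gene-dense. The share on chromosome 19 was 3.29%, above those of chromosomes 12 (3.08%), 15 (2.75%) and 20 (2.64%). RepID regions themselves numbered 3.41 per Mb on chromosome 21, 3.49 on chromosome 4, 3.79 on chromosome 13 and 5.55 on chromosome 18, against 31.1 per Mb on chromosome 22. In absolute numbers, chromosome 7 held 357 distant origins, chromosome 10 held 354 and chromosome 2 held 334.

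**Figure D1:**
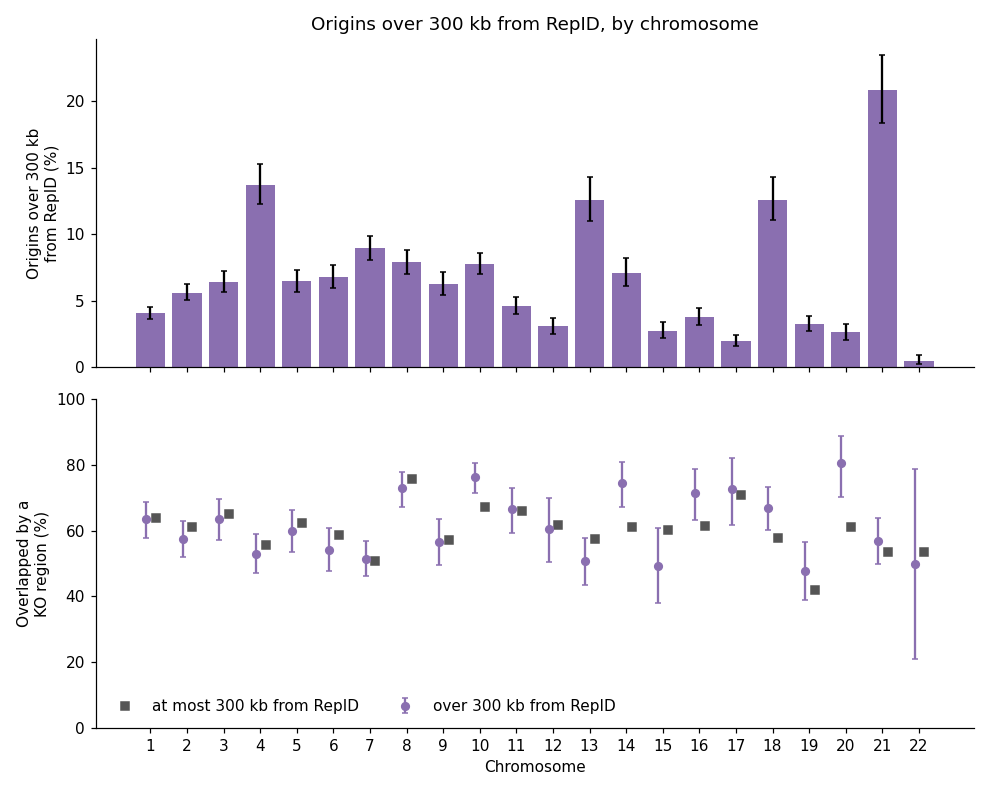
Top, percent of the WT origins under 20 kb on each autosome (x axis) that lay over 300 kb from RepID; bars show the share and whiskers its exact binomial 95% interval, and chromosome 21 stands highest at 20.9%. Bottom, percent of origins overlapped by a KO region on the same autosomes, with circles and whiskers (95% interval) for distant origins and squares for the others; the circles run from 47.7% on chromosome 19 to 80.8% on chromosome 20.

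The distant origins lay in 679 stretches between neighbouring RepID regions, or between a RepID region and the end of the listed chromosome in 5 of them. The stretches had a median length of 1.17 Mb and held a median of 4 distant origins, with quartiles of 2 and 7, and 126 held 1 each. Of the 946 RepID-free stretches over 0.6 Mb long, 270 held no distant origin. The 92 fullest stretches together held at least as many distant origins as all the other stretches, and the 5 fullest held 410 (9.18%). RepID regions that bounded the stretches had a median score of 200, against 198 for the whole RepID list.

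The fullest stretch, chr19:19729443-27731794, held 100 distant origins in 8.002 Mb, of which 3.21 Mb had no region in any list. It spans the chromosome's centromere and the flanking part of the short arm, which is known for clusters of zinc-finger genes. It also held the 5 distant origins farthest from RepID, all between 3.88 and 3.99 Mb away. The farthest, chr19:23715801-23718200, had a score of 110 and was covered over 50% of its length by a KO region. The next, chr19:23747401-23748400, had a score of 49 and no overlapping KO region. Of the other three, chr19:23752401-23755400 (score 80) and chr19:23849801-23852600 (score 183) were overlapped by a KO region, and chr19:23643201-23643800 (score 36) only touched the edge of one.

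The next fullest stretches were adjacent, near the end of the long arm of chromosome 7. The stretch chr7:155251350-157092028 held 90 distant origins and chr7:152623152-155250875 held 82. The remaining 2 of the top 5, chr14:96969421-99374480 and chr10:129947963-131264700, held 69 each. Counted over the positions more than 300 kb from RepID, these 4 stretches held 72.5, 40.4, 38.2 and 96.3 distant origins per Mb in the order given. Outside empty stretches, the territory near RepID held 35.0 origins per Mb on average and all distant territory 6.90. The 4 stretches were picked for holding the most distant origins, so high densities were partly built into the choice. The chromosome 19 stretch held 22.3 per Mb outside its empty part. Some long stretches were sparse. Examples, chosen after their values were seen, are chr13:80917180-88329935 in the gene-poor middle of the long arm (7.41 Mb) and chr6:64346653-70506240 (6.16 Mb), which held 18 and 14 distant origins, or 2.85 and 2.52 per Mb by the same count.

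Distant origins also stood farther from their neighbours. The gap to the nearest other WT region had a median of 14.0 kb (order-statistic 95% interval 12.8 to 15.8 kb), against 2.60 kb for the other origins and 4.4 kb for those 100 to 300 kb from RepID. A neighbour within 2 kb was present for 940 distant origins (21.04%), against 43.8% of the others, a difference of -22.8 percentage points (Newcombe 95% interval -24.0 to -21.5). No neighbour within 50 kb was listed for 1309 (29.3%), against 5.13% of the others, a difference of 24.2 percentage points (22.8 to 25.5). Spacing varied within the set. Its median rose from 9.20 kb at 300 to 500 kb from RepID to 20 kb at 500 kb to 1 Mb and 75.2 kb at 1 to 2 Mb. It was 17.2 kb (7.60 to 23.2 kb) for the 107 origins over 2 Mb away. Of the origins over 1 Mb away, 82 lay in the fullest stretch, on chromosome 19, so the farthest classes rest partly on 1 locus.

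Regions were narrow. The median width was 1600 bp (95% interval 1600 to 1800 bp), with quartiles of 1000 and 2600 bp and a range of 200 to 19000 bp. The other origins had a median of 2400 bp, those 100 to 300 kb away 2000 bp and those within 2 kb of RepID 3000 bp. Widths of at most 1000 bp made up 1125 (25.2%) of the distant origins and 14.3% of the others, a difference of 10.9 percentage points (9.65 to 12.2). Widths of at least 5000 bp made up 293 (6.56%) and 19.9%, a difference of -13.3 percentage points (-14.1 to -12.5). The median was lower than that of the other origins on 21 of 22 autosomes and equal on chromosome 21, at 2400 bp. Altogether the distant origins covered 9.66 Mb, 3.77% of the length of all autosomal origins under 20 kb.

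Scores were low as well. The deposited score is a whole number, and what it counts is not given in the sources used here, and it is compared only within the WT list. Distant origins had a median score of 75 (95% interval 74 to 77), with quartiles of 53 and 128 and a range of 23 to 3805. The medians were 124 for the other origins, 88 at 100 to 300 kb and 268 within 2 kb of RepID. Of the distant origins, 72.5% scored below the median of all autosomal origins under 20 kb, which was 120, against 48.6% of the others (difference 23.9 percentage points, 22.6 to 25.3). Their median score was lower than that of the other origins on all 22 autosomes. Score followed width closely (Spearman's rho 0.84 across the 4467 regions, a description, since both come from the same calls). Per kb of width, the median score was 50.7 for the distant origins, 50 at 100 to 300 kb, 57.8 for all the others and 86.3 within 2 kb of RepID.

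**Figure D2:**
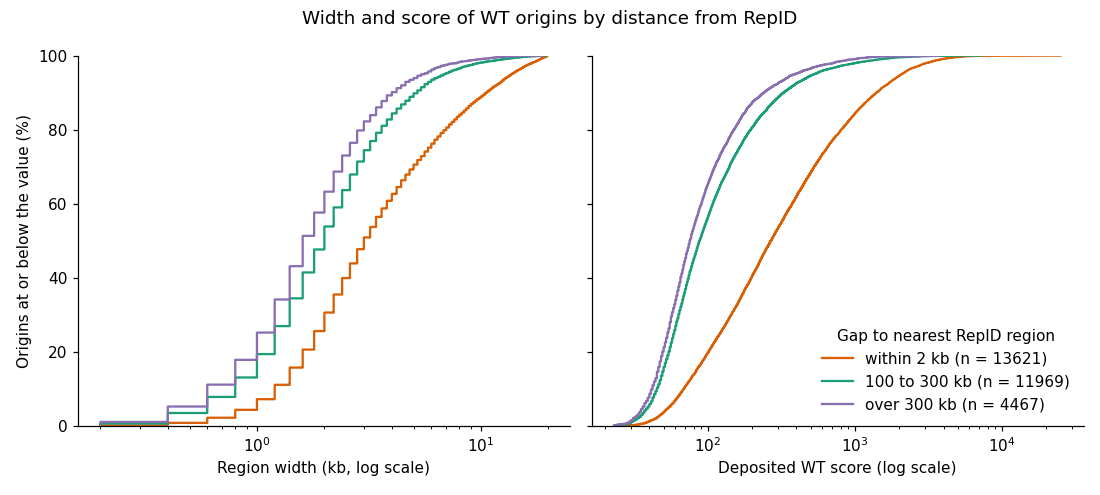
Cumulative percent of WT origins (y axis) by region width in kb (left) and by deposited score (right), both on log axes, for origins within 2 kb, 100 to 300 kb and over 300 kb from RepID. The curve for over 300 kb lies to the left in both panels, with medians of 1600 bp and 75 against 3000 bp and 268 within 2 kb.

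A few distant origins were strong, and many of these were on chromosome 21. Scores above 692, the 90th percentile of all autosomal origins under 20 kb, were reached by 97 distant origins (2.17%), against 10.5% of the others (difference -8.30 percentage points, -8.75 to -7.78). Chromosome 21 held 24 of the 97, and 13 of the 42 with a score over 1000. Its distant origins had a median score of 123, beside 134.5 for its other origins, and no other autosome with over 12 distant origins had a median above 90. The 5 highest scores were 3805 at chr21:45852201-45865000, 3638 at chr21:45573201-45588200, 3152 at chr2:237064401-237083400, 2966 at chr21:45532601-45543400 and 2938 at chr15:53075201-53084600. The 3 on chromosome 21 shared 1 stretch, chr21:45149314-46237371, in the gene-dense end of the long arm. That stretch held 35 distant origins with medians of 369 in score and 4000 bp in width, and nearby stretches at chr21:43655529-44495144 and at the chromosome's end from 47402218 held 25 and 33, with median scores of 257 and 205.

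These strong origins were poorly covered in the KO list. No KO region overlapped chr21:45852201-45865000, where the nearest lay 9000 bp away, or chr21:45532601-45543400, where it lay 8800 bp away, or chr15:53075201-53084600, where it lay 5200 bp away. A KO region from 45587601 to 45590200 covered only 4% of chr21:45573201-45588200, and one from 237082401 to 237085000 covered 5.26% of chr2:237064401-237083400. Both of these KO regions scored below the KO median of 130, at 110 and 104. The next highest scores without a KO region were 2919 at chr21:45783801-45792600 and 1386 at chr1:323801-332400. Over all 97 origins above the 90th percentile, however, 77 (79.4%, 70.0 to 86.9%) were overlapped by a KO region and 41.2% had one at their centre, against 61.4% and 51.9% of the distant origins with lower scores. High-scoring regions were also the wider ones. Above a score of 500, 75.3% of distant and 72.3% of other origins were overlapped, a difference of 3.05 percentage points (-4.37 to 9.25). Their centres were covered in 40.3% and 37.4%, a difference of 2.88 points (-4.59 to 10.8).

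An origin overlapped by at least 1 bp of a KO region is called kept below. Of the 4467 distant origins, 2759 (61.8%, exact binomial 95% interval 60.3 to 63.2%) were kept, against a background of 61.1% over all 76059 autosomal origins under 20 kb. The share of the other origins was 61.1% as well, and the difference of 0.699 percentage points had a Newcombe interval of -0.780 to 2.16, so by this criterion no difference was detected beyond counting error. The centre of a distant origin lay in a KO region in 2309 cases (51.7%, 50.2 to 53.2%), against a background of 45.9%. The share was 45.5% for the other origins, a difference of 6.19 percentage points (4.68 to 7.70). After the other origins were weighted to the widths and scores of the distant ones, the differences were 3.93 points (2.53 to 5.33) for overlap and 4.28 points (2.80 to 5.75) for the centre. No replicate spread exists to judge these differences by. The KO list, with 159667 regions, was also longer than the WT list, with 78859. The depth and the calling settings of the 2 lists are not given in the sources used here, so depth, calling and genotype cannot be told apart, and every kept share rests on the KO list as deposited.

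The sign of the comparison depended on the distance of the other origins. Against origins within 2 kb of RepID, of which 54.6% were kept and 29.9% had a covered centre, distant origins were higher by 7.19 (5.53 to 8.84) and 21.8 (20.1 to 23.4) percentage points. Against origins 100 to 300 kb away, of which 67.6% were kept and 56.2% had a covered centre, they were lower, with differences of -5.81 (-7.47 to -4.16) and -4.52 (-6.24 to -2.81). Weighting to width and score left the latter at -3.85 (-5.44 to -2.25) and -4.36 (-6.04 to -2.68).

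Within the distant set, the share fell with distance. It was 66.0% (64.1 to 67.8%) for 2570 origins 300 to 500 kb from RepID, 60.6% (58.0 to 63.1%) for 1417 at 500 kb to 1 Mb, 42.4% (37.3 to 47.6%) for 373 at 1 to 2 Mb and 43.9% (34.3 to 53.9%) for 107 beyond 2 Mb. The last 2 do not differ beyond counting error, and 82 of the origins in them lay in the fullest stretch, on chromosome 19. Origins over 500 kb away were kept less often than those at 300 to 500 kb, by a difference of -9.96 percentage points (-12.8 to -7.06), which was -7.83 (-10.6 to -5.03) after weighting to width and score and -9.13 without chromosome 19. Coverage by KO regions fell alongside in the surroundings, from 31.3% of positions 9 to 10 kb from the centre at 300 to 500 kb to 12.5% at 1 to 2 Mb, and was 17.1% beyond 2 Mb. The centre itself was covered in 55.1%, 51.5%, 32.7% and 37.4% of origins in the 4 classes from near to far. The ratio of centre to surroundings was 1.76, 1.90, 2.61 and 2.19 in the same order. It was 1.72 at 100 to 300 kb, 1.21 within 2 kb of RepID and 1.56 for all the other origins. The higher ratios thus went with lower coverage of both. The part of the thinner KO coverage in the lower kept share was not tested.

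**Figure D3:**
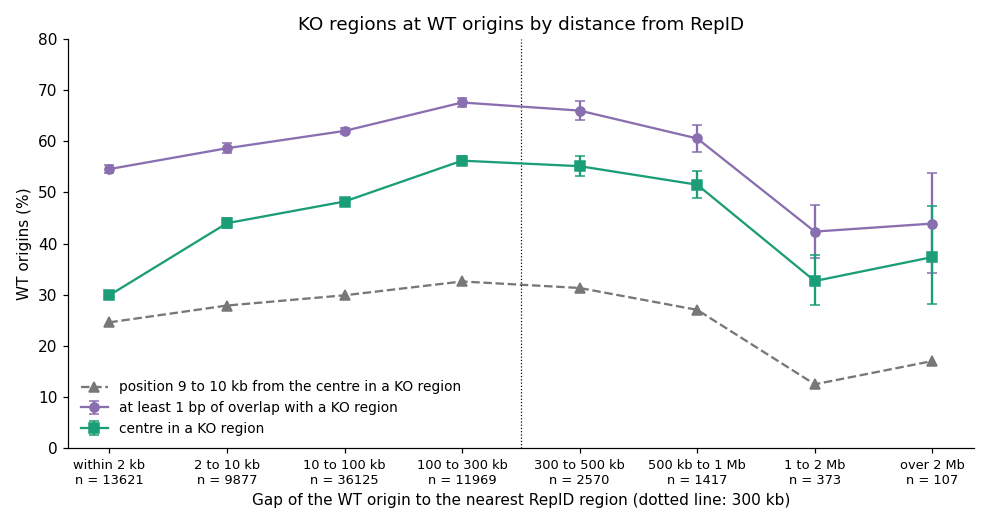
Percent of WT origins (y axis) with at least 1 bp of KO overlap (circles), with the centre in a KO region (squares) and with a KO region 9 to 10 kb from the centre (triangles), by gap to RepID (x axis, 8 classes with n); whiskers are exact binomial 95% intervals and the dotted line marks 300 kb. Overlap is 67.6% at 100 to 300 kb and 42.4% at 1 to 2 Mb.

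**Figure D4:**
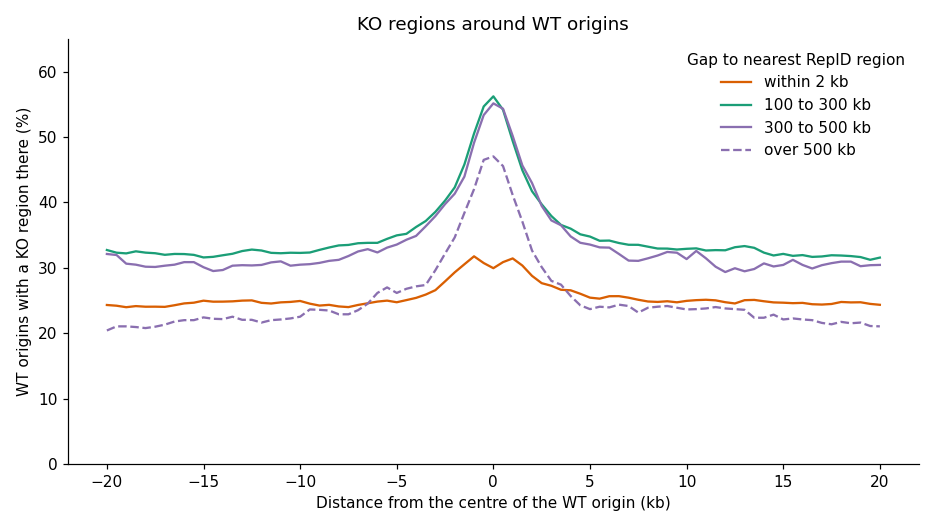
Percent of WT origins with a KO region (y axis) at each distance from the origin's centre in kb (x axis, every 500 bp), for 4 classes of gap to RepID. Both distant classes have a central peak, at 55.1% and 47.0%, whereas origins within 2 kb of RepID have 29.9% at the centre and slightly more on either side.

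Most kept distant origins were covered whole. A KO region overlapped 2606 of them singly, 144 met 2 KO regions and 9 met 3 or 4. Complete coverage was seen for 1680 of the 2759, which was 37.6% of all distant origins, against 36.4% of those 100 to 300 kb away and 24.7% of all the others. Median widths in these 3 sets were 1600, 2000 and 2400 bp, and the part of width in this contrast was not tested. The KO regions at distant origins had medians of 4000 bp in width and 178 in score, and 71.3% of them scored above the KO median. That share was 70.8% for KO regions at origins 100 to 300 kb away and 64.4% at all the other origins. Medians for the kept distant origins themselves were 2000 bp and a WT score of 79. The 1708 that were not kept had medians of 1400 bp and 70. Among the latter the nearest KO region lay at a median of 5.20 kb, within 2 kb for 469 (27.5%) and over 20 kb away for 270 (15.8%). For the other origins that were not kept the last share was 8.28%.

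Width and crowding both went with overlap. Of distant origins up to 1000 bp wide, 49.7% were kept, and the difference from other origins of that width was 1.28 percentage points (-1.79 to 4.35). For widths above 2000 and up to 3000 bp the share was 69.3% and the difference 8.78 points (5.50 to 11.9), and above 5000 bp 86.8% and 9.77 points (5.17 to 13.4). A wider region meets a 1 bp criterion more easily, whereas its centre is a single position. Centres of distant origins in these width classes were covered in 47.7%, 55.3% and 53.3% of cases, a flatter course. For the other origins these shares were 45.6%, 45.5% and 44.0%. Distant origins with a WT neighbour within 2 kb were kept in 72.9% of cases (69.9 to 75.7%), those with the nearest neighbour over 50 kb away in 48.1% (45.4 to 50.9%). The former were also wider (medians 2200 and 1400 bp). Adjacent distant origins in the same stretch tended to share their state: 62.0% of 3788 such pairs were both kept or both not kept, beside 52.8% for independent draws at the overall share. After a kept origin the next was kept in 69.6% of cases, and after one that was not, in 50.9%. The 2759 kept origins met 2621 KO regions, so some KO regions met more than 1 origin. Such neighbours are not independent, and the part of this in the shared state was not tested.

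Stretches differed. Among the 121 that held at least 10 distant origins, with 2546 in all, the kept share ran from 0 to 100%, with quartiles of 52.2 and 83.3%. All distant origins were kept in 6 stretches, and under 25% were kept in another 6. In stretches over 4 Mb long, 128 of 311 were kept (41.2%, 35.6 to 46.9%), against 2092 of 3111 (67.2%, 65.6 to 68.9%) in those up to 2 Mb. KO regions numbered 32.3 and 59.1 per Mb outside empty stretches in these 2 sets. At the fullest stretch, on chromosome 19, 41 of 100 were kept. In chr13:67805139-73301168, 2 of 13 were kept, and in chr13:80917180-88329935, 4 of 18.

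**Figure D5:**
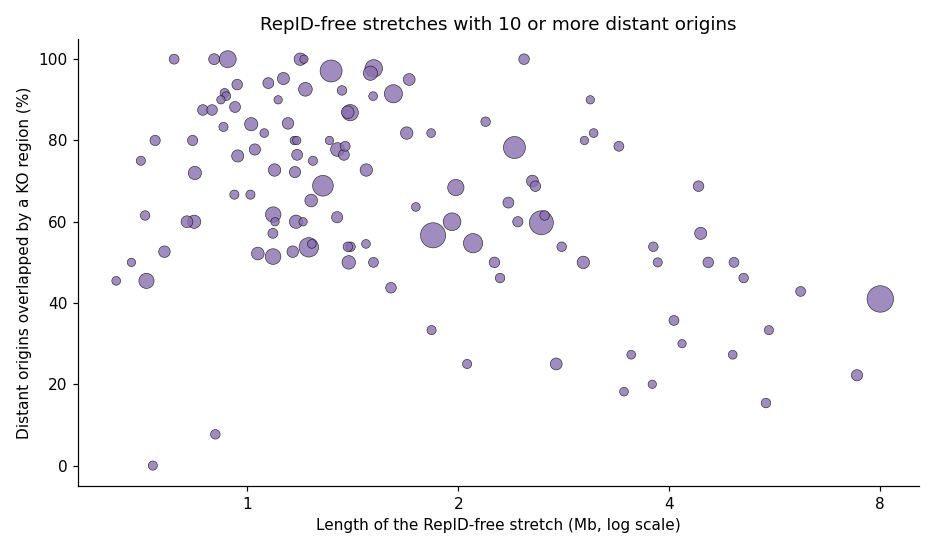
Percent of distant origins overlapped by a KO region (y axis) against the length of the RepID-free stretch in Mb (x axis, log scale) for the 121 stretches with 10 or more distant origins, with point area following their number, up to 100. The 13 stretches over 4 Mb run from 15.4% to 68.8%, and the single point at 0% is a stretch on distal chromosome 10.

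Chromosome 10 held both extremes. All 41 distant origins were kept in chr10:124914743-125852266, an unbroken run with scores of 29 to 1523, and 67 of 69 in chr10:129947963-131264700. None of 12 was kept in chr10:132159228-132892244, the only stretch of the 121 at 0. There the KO list itself was almost empty. From 132 Mb to its end, chromosome 10 held 288 WT regions and 8 KO regions, 2.27 per Mb, whereas from 126 to 131 Mb it held 413 and 454, with 90.8 KO regions per Mb. Among the origins that were not distant, 314 of 339 were kept from 126 to 131 Mb, and 4 of 269 in that terminal part. From 126 to 131 Mb and in the terminal part, the high and the low share were thus not particular to distant origins. The stretch with all 41 kept lies before 126 Mb, and origins near RepID were not counted beside it. No other 1 Mb window of the autosomes with at least 10 WT regions had 5 or fewer KO regions. Without the 12, the share kept was 78.9% on chromosome 10 and 61.9% over all distant origins.

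By chromosome, the kept share of distant origins ran from 47.7% (38.9 to 56.6%) on chromosome 19 to 80.8% (70.3 to 88.8%) on chromosome 20. It was above that of the other origins on 10 autosomes and below it on 12. The interval of the difference lay above 0 on 5 of the 22, namely chromosomes 20 (19.5 percentage points, 9.23 to 26.9), 14 (13.6, 6.21 to 19.9), 16 (10.1, 1.98 to 17.1), 18 (9.15, 2.16 to 15.6) and 10 (9.07, 4.17 to 13.5), and below 0 on 0. For covered centres the difference was positive on 20 autosomes and its interval lay above 0 on 7.

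Many regions of the deposited KO list lay in the distant territory away from WT origins. The KO list held 29465 regions there, 45.5 per Mb outside the empty stretches, or 6.60 for each distant WT origin. In the rest of the autosomes there were 63.5 KO regions per Mb and 1.82 for each WT origin. Of the KO regions in distant territory, 26029 (88.3%, 88.0 to 88.7%) lay more than 2 kb from any WT region, against 57.6% elsewhere. Their medians were 2800 bp in width and 122 in score, beside 3000 bp and 132 elsewhere. KO regions covered 14.7% of the distant territory outside the empty stretches and 22.5% of the rest, and WT regions covered 1.55% of the former. WT origins were sparser in distant territory, with 6.90 against 35.0 per Mb outside the empty stretches. The depth of the libraries is unknown, and the parts of depth and of WT sparsity in these counts were not tested. A figure legend of the paper gives a smaller number of KO peaks than this list holds. Its wording leaves open whether all KO peaks are meant, so these counts hold for the deposited list only.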

How the data were processed

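The authors called regions from 1 library each and deposited lists of coordinates with 1 score per region. RepID regions were called with MACS against genomic DNA from the same line, and their list carries a deposited score of its own. Nascent-strand regions were called against HCT116 genomic DNA, which was not analysed here. Submitters' notes name MACS, SICER and build hg19. Both nascent-strand lists lie on a grid of 200 bp, and the programme and the meaning of their deposited score are not given for HCT116 in the sources used here.

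Gaps, overlaps and covered positions were computed in Python 3.11.15 (pandas 2.3.3, numpy 2.4.6, SciPy 1.17.1; plots with matplotlib 3.10.9) and tested on simulated data against bedtools 2.31.1. Positions are counted from 1. Weighting used strata of 10 by 10 quantiles of width and score, with a normal-approximation interval. Named regions followed fixed rules: the highest scores, the largest gaps, the highest scores without a KO region, the fullest stretches, the limit and the longest runs. Stretches at the extremes of kept share and distal chromosome 10 were named after their values were seen. Members and rules were chosen with earlier results of these data known. No test between conditions was made. A genome and annotation on hg19 were not used here, so genes and sequences are not given.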

Additional observations from a re-analysis of the deposited data

How the results depend on the processing

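With no replicates, a value counts as moved when it leaves its 95% counting interval, or 1.5 times for a number. Of 57 alternatives, 34 stayed, 22 moved and 1 reversed; leaving out distal chromosome 10 or chromosome 19, and weighting the classes within the distant set, were added after the data were seen. What caused these shifts was not tested.

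The number of distant origins was 7729 at a limit of 200 kb, 1897 at 500 kb and 10615 with RepID regions at or above the median score only. The kept share was 63.9% at 200 kb, 56.04% at 500 kb, 53.2% with 50% coverage required, 72.3% at a KO gap of up to 2 kb, 46.7% with the KO list limited to the WT number and 65.5% for WT scores at or above the median. Its difference from the other origins was 3.16 percentage points at 200 kb, -5.20 at 500 kb, 7.02 with 50% coverage, 2.54 with the limited KO list, 3.93 when weighted and -5.81 against origins 100 to 300 kb away. For covered centres it was 9.04 at 200 kb, 1.19 at 500 kb, 4.4 for the higher WT scores, 4.28 when weighted, and reversed to -4.52 against origins 100 to 300 kb away. The median score was 78 at 200 kb and 85 with the stricter RepID list. Without empty stretches the density was 6.90 per Mb. Leaving out chromosome 21 moved none of the 7 results it was run for. Because depth is unknown, a region in 1 list only may have been missed in the other.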

Other observations

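The width limit left out 9 autosomal WT regions of 20 kb or more that also lay over 300 kb from RepID, out of 1433 regions of that width. They had scores of 2472 to 16522, and 5 of them were overlapped by a KO region. The highest score was at chr21:45700001-45757200, in the same stretch as the strongest distant origins, where a KO region covered 9.44% of 57200 bp. The second, chr4:132644001-132686600 (score 15163), lay 2.44 Mb from RepID and met 5 KO regions that covered 23.9% of it. On chromosome 16, chr16:18427801-18451200 (score 5809) and chr16:18467801-18490800 (score 5718) met none, with the nearest KO regions 200 and 5200 bp away.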
